A study of Mus musculus with 16 samples.

Results

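Dendritic cells take up antigen and present it to T cells, and they can be raised from mouse bone marrow in culture. The comparison set transcript levels in such cells grown in salt-rich medium against cells given lipopolysaccharide (LPS), to ask which genes reach the same level under either stimulus and which respond to 1 of them. It rests on 8 of the 16 arrays of the study: 4 arrays of cells at 450 mOsm/L without LPS (salt alone) and 4 arrays of cells at 290 mOsm/L with LPS (LPS alone). The 4 arrays of cells at 290 mOsm/L without LPS gave the untreated level. All cultures were C57BL/6 bone marrow grown with 10 ng/mL of GM-CSF, a growth factor for myeloid cells. The salt medium received NaCl from day 3. Every culture was collected on day 7 and plated for 6 h more, and LPS was present at 10 ng/mL in these 6 h only. The stimuli therefore differed in duration as well as in kind, and these cannot be told apart. Each of 4 mice was the source of 1 culture in every group, so replicates are separate animals and a replicate number marks a mouse. The remaining 4 arrays, at 450 mOsm/L with LPS, entered the estimate of the spread and are described where named. The cultures were not sorted, so a lower level can come from fewer cells of a type or from less RNA per cell, which bulk samples cannot tell apart.

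LPS, a component of the bacterial outer membrane, is bound by Cd14 and sensed by the Tlr4 complex. The adaptors Myd88 and Ticam1 then lead to NF-kB, which drives cytokine genes, and to interferon regulators, which drive interferon and through it the interferon-stimulated genes. Hypertonic medium draws water out of cells, and the transcription factor Nfat5 answers by raising carriers that import organic osmolytes. Both pathways act on genes through short DNA motifs, so promoters of 4 genes on which the results turn are shown, each 300 bases from RefSeq for build GRCm38.p6, written 5' to 3' on the gene's strand, from 250 bases before to 50 after the start. Ifit1 is an antiviral interferon-stimulated gene that was higher under both stimuli and much more so under LPS. Ifitm3, an antiviral membrane protein gene, reached about the same level under either. Il6, a pyrogenic cytokine gene, was higher under LPS only by the rule below, and Slc6a12, the betaine carrier gene, was highest under salt. Capitals mark GAAANNGAA, the core of the interferon-stimulated response element, in Ifit1 and Ifitm3, the NF-kB consensus in Il6 and TGGAAA, the core of the Nfat5 element, in Slc6a12, searched on both strands with overlapping matches kept. Counted from the listed start, the first match begins at -109 in Ifit1 and at 2 in Ifitm3. The Ifitm3 matches therefore lie after its listed start.
Ifit1 (chr19:34640639-34640938, plus strand): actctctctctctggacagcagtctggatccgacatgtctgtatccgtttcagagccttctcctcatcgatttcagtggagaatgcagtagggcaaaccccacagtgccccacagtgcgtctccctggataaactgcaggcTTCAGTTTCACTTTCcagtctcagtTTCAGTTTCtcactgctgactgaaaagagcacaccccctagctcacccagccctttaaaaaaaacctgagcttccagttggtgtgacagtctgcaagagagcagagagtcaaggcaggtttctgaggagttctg
Ifitm3 (chr7:141010695-141010994, minus strand): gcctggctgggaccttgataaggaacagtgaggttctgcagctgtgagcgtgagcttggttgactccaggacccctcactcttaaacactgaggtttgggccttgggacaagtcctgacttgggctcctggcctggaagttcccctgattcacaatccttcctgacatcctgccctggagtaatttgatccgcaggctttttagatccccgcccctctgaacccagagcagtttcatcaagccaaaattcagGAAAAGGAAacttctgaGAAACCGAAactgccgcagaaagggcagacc
Il6 (chr5:30012864-30013163, plus strand): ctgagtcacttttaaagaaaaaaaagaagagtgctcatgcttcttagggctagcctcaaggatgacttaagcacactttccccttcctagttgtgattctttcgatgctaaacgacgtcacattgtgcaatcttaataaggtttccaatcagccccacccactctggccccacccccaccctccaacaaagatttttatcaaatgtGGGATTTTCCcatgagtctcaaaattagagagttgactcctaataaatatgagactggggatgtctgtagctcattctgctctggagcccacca
Slc6a12 (chr6:121342324-121342623, plus strand, the 1 of its 5 listed starts that holds the motif): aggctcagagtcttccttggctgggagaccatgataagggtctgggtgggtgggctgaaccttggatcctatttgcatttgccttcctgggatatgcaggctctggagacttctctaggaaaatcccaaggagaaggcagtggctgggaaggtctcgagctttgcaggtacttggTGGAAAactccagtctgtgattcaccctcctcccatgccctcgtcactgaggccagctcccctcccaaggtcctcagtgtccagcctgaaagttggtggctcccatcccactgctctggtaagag

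Values are log2 levels per probe set, so a difference of 1 is 2-fold, and a level of 1 gene is not set against that of another. Differences are salt alone minus LPS alone unless another pair is named. Each is given with limma's standard error (SE, n = 4 mice per group). Genes were called at an adjusted p (Benjamini-Hochberg over 10236 genes) under 0.05. Array medians lay between 6.78 and 6.93, and the lowest median correlation of an array with its own group was r = 0.990 across genes (450 mOsm replicate 4). The dendritic cell marker gene Itgax had means of 11.91 under salt, 11.64 under LPS and 12.13 in untreated cells. Cd74, the invariant chain of MHC class II, had 13.66, 13.53 and 13.60 in the same order. These means lay above 6.83, the median of all values. Not all listed dendritic cell markers did: over the arrays of these groups Cd209a ranged from 5.67 to 6.48 and Kmo from 5.62 to 6.75.

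Salt and LPS left these cells far apart. Of 10236 genes, 4689 were higher under salt than under LPS (45.8%) and 2892 were lower (28.3%), of which 597 and 812 differed at least 2-fold. The median difference over all genes was 0.106, and cyclic loess, which removed it (median -0.0199), gave 3591 higher and 3768 lower, so which direction is more frequent depends on the scaling. By an equivalence test, 5415 genes were shown to differ by less than 0.5, or 1.41-fold. Against untreated cells, salt raised 2214 genes (21.6%) and lowered 2549 (24.9%), of which 90 and 114 changed at least 2-fold, while LPS raised 2746 (26.8%) and lowered 4871 (47.6%), of which 752 and 569 changed at least 2-fold. Median centring gave 1416 higher and 3172 lower for salt, and no filter gave 3291 and 2481. Cyclic loess gave 3919 higher and 3771 lower for LPS. Both of these changes are measured from the same 4 untreated arrays, so they are set side by side and not correlated.

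At the top of the direct comparison was Rnase2a, an eosinophil-type ribonuclease gene of a family with similar members. Its levels were 12.02, 11.75, 11.05 and 10.61 under salt, against 6.62, 7.26, 5.66 and 6.08 under LPS, and 7.29, 7.03, 6.14 and 6.37 in untreated cells. All 4 salt arrays stood above every other array of these groups, and the difference was 4.95 ± 0.14 (adjusted p = 1.09e-13 in limma). Cd28, known as a costimulatory receptor of T cells, had 9.94, 9.81, 9.78 and 9.60 under salt, against 6.32, 6.01, 6.19 and 6.14 under LPS and 8.71, 8.38, 8.26 and 8.50 in untreated cells. The 3 groups did not overlap, with untreated cells in between (difference 3.62 ± 0.11, adjusted p = 2.28e-13 in limma). Lpin1, a phosphatidate phosphatase gene that shares a locus with Ntsr2, had 9.60, 9.66, 9.42 and 9.44 under salt, against 5.78, 5.91, 6.24 and 6.40 under LPS and 9.32, 9.04, 9.51 and 9.16 in untreated cells. Its salt and untreated arrays overlapped and its LPS arrays stood far below both (difference 3.44 ± 0.12, adjusted p = 1.05e-12 in limma). Leaving out a predicted gene, the next in order were Fxyd2, a sodium pump subunit (3.18 ± 0.07), the actin regulator Eps8 (2.95 ± 0.07), the monocyte chemokine receptor Ccr2 (2.88), the prostaglandin-degrading enzyme Hpgd (2.72 ± 0.13) and the fatty acid desaturase Scd1 (2.71 ± 0.08). Means under LPS of Rnase2a (6.41), Cd28 (6.17), Lpin1 (6.08) and Hpgd (5.93) were below 6.83, the median of all values and the level of the filter, where differences can be understated.

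At the other end stood Il6, with 4.77, 4.50, 4.71 and 4.40 under salt, against 11.80, 12.04, 11.77 and 11.94 under LPS and 4.13, 4.39, 4.18 and 4.35 in untreated cells. The salt arrays lay just above the untreated ones and the LPS arrays stood about 7 units above both, a difference of -7.29 ± 0.09 or 157-fold (adjusted p = 2.22e-17 in limma). Ngp, a neutrophil granule protein gene, had 6.00, 6.22, 6.51 and 6.32 under salt, against 12.48, 12.78, 12.71 and 12.80 under LPS and 12.05, 12.29, 12.28 and 12.54 in untreated cells. LPS and untreated arrays overlapped between mice, although LPS was higher in each of the 4 mice, and the salt arrays stood apart (difference -6.43 ± 0.14, adjusted p = 1.28e-14 in limma). The changes from untreated cells were 0.33 ± 0.09 under salt and 7.62 ± 0.09 under LPS for Il6, and -6.03 ± 0.14 and 0.40 ± 0.14 for Ngp, all of them called. Others among the 10 lowest were Il12b, a cytokine subunit of T helper 1 responses (-6.36 ± 0.14), the chemokine gene Cxcl10 (-6.17 ± 0.15), the guanylate-binding protein Gbp5 (-5.96 ± 0.09), the activation marker Cd69 (-5.94 ± 0.15), the inducible nitric oxide synthase Nos2 (-5.76 ± 0.10) and the calcium-binding alarmin S100a9 (-5.73 ± 0.17). Means under salt of Il6 (4.60), Ngp (6.27), Il12b (6.35), Gbp5 (6.55), Cd69 (6.19) and Nos2 (6.74) were likewise below 6.83.

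The untreated arrays split these differences into classes. A gene counted as moved under a stimulus when it was called against untreated cells with a change of at least 1. Of the genes tested, 1422 moved under at least 1 stimulus, 204 of them under salt and 1321 under LPS, and 103 moved under both. Among those 103, 81 went in 1 direction, and for 21 of these (0.205% of genes) the direct difference was shown to be within 0.5, which is called the same level here. The other 60 reached unequal levels. Genes that moved under 1 stimulus and were shown to be within 0.5 of untreated cells under the other are called specific, and there were 37 for salt (0.361%) and 831 for LPS (8.12%). A further 114 genes (1.11%) moved under at least 1 stimulus and were called with a change of at least 0.5 in the opposite direction under the other. They include the rest of the 103, which moved under both in opposite directions. For 359 genes no class was reached. Of those, 250 moved under LPS and were called for salt in the same direction by a smaller amount. Rnase2a and Ngp also reached no class, as their changes under LPS were not shown to be within 0.5.

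**Figure D1:**
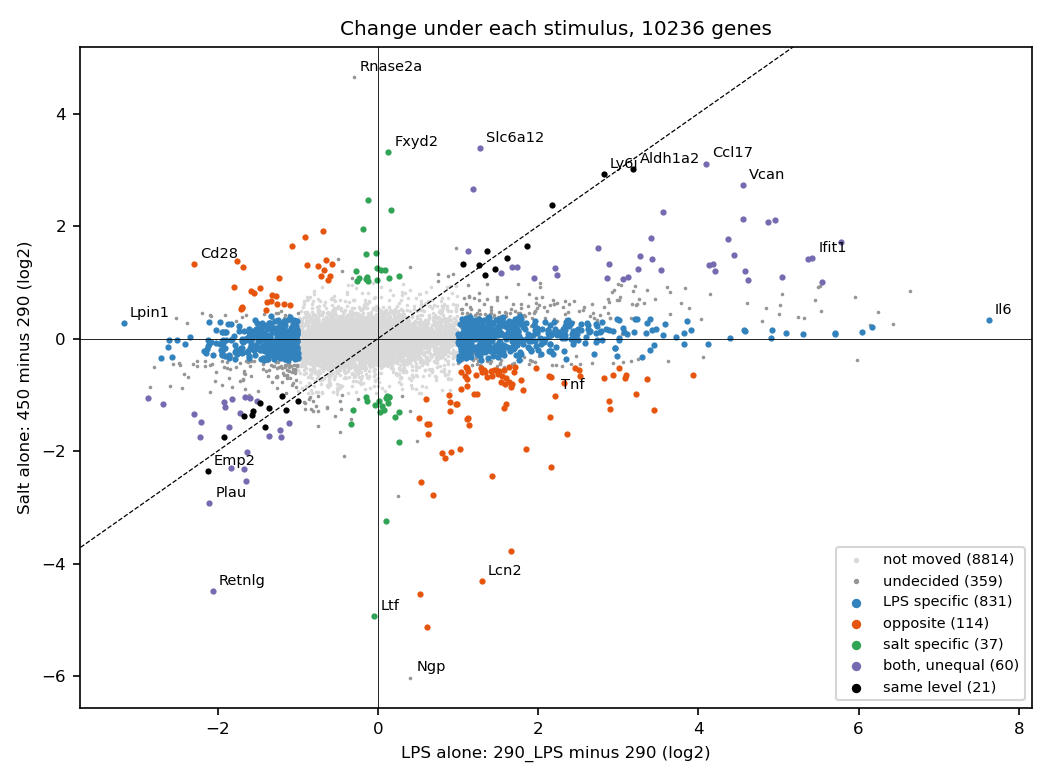
Change of each of 10236 genes from untreated cells under salt (vertical axis, log2) and under LPS (horizontal axis, log2), with colours for the classes and a dashed line of equal change. Both axes are measured from the same 4 untreated arrays. The 21 same-level genes lie along the dashed line, the 831 LPS-specific genes along the horizontal axis and the 37 salt-specific genes along the vertical one.

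Of the same-level genes, 10 were higher than in untreated cells, led by Aldh1a2, the retinaldehyde dehydrogenase that makes retinoic acid. Its levels were 10.00, 10.23, 9.50 and 9.61 under salt, against 10.17, 10.23, 9.71 and 9.96 under LPS and 7.30, 6.99, 6.42 and 6.58 in untreated cells. Both stimulated groups overlapped and stood more than 2 units above every untreated array. The change was 3.01 ± 0.10 for salt and 3.19 ± 0.10 for LPS, and the difference between them was -0.18 ± 0.10 with a 95% interval from -0.39 to 0.03 (equivalence adjusted p = 0.00674 in limma). Ly6i, a surface protein gene of a family with similar members, had 9.96, 9.65, 9.10 and 8.94 under salt, against 9.33, 9.26, 9.31 and 9.34 under LPS and 6.55, 6.70, 6.09 and 6.61 in untreated cells. The LPS arrays lay within the range of the salt arrays (difference 0.10 ± 0.14, equivalence adjusted p = 0.0154 in limma). Smpdl3b, a membrane-anchored phosphodiesterase gene known in mice to dampen Toll-like receptor signalling, averaged 10.00 under salt, 9.80 under LPS and 7.63 in untreated cells (difference 0.20 ± 0.12).

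Members of interferon-inducible families were among the 10. Ifitm3, whose promoter is shown above, had 12.96, 12.92, 12.70 and 12.77 under salt, against 13.11, 13.11, 13.01 and 13.02 under LPS and 11.40, 11.04, 11.16 and 11.17 in untreated cells. The salt arrays lay just below the LPS arrays without overlap, so the difference of -0.22 ± 0.06 was called (adjusted p = 0.00357 in limma) and was also shown to be under 0.5 (equivalence adjusted p = 0.000582). Levels near the top of the scale, whose highest value was 14.32, can understate differences. Ifitm1 averaged 10.00 under salt, 10.22 under LPS and 8.77 in untreated cells, and Ifi27l2a, whose locus overlaps Ifi27, averaged 10.34, 10.53 and 8.92. Close relatives in the Ifitm family can share probes. The 4 others were the proline carrier gene Slc6a20a (changes of 1.55 for salt and 1.36 for LPS), the leukocyte adhesion receptor gene Jaml (1.31 and 1.26), the gut-homing chemokine receptor gene Ccr9 (1.33 and 1.07) and Il1r2, the decoy receptor of interleukin 1 (1.13 and 1.33). Untreated means of Aldh1a2 (6.82), Ly6i (6.49), Slc6a20a (6.51), Il1r2 (6.44) and Ccr9 (5.90) were below 6.83.

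There were 11 genes that fell to the same level under either stimulus. Emp2, a tetraspan membrane protein gene, had 7.26, 7.12, 7.40 and 7.44 under salt, against 7.66, 7.33, 7.59 and 7.55 under LPS and 9.75, 9.65, 9.62 and 9.60 in untreated cells. Both groups of stimulated arrays overlapped about 2 units below the untreated ones, with changes of -2.35 ± 0.07 for salt and -2.12 ± 0.07 for LPS and a difference of -0.23 ± 0.07 (equivalence adjusted p = 0.00114 in limma). Its relative Emp1 averaged 9.75 under salt, 9.63 under LPS and 10.99 in untreated cells. Cd300ld, a myeloid receptor gene, averaged 11.27, 11.06 and 12.63 in the same order, and Hpgds, the prostaglandin D synthase of blood cells, averaged 9.25, 8.99 and 10.54. Lrrc32, which encodes the surface docking protein of latent TGF-beta, fell by 1.11 under salt and by 1.00 under LPS. Scamp5, a vesicle membrane protein gene, had changes of -1.37 and -1.66, Pkp2, a desmosome component gene, -1.02 and -1.19, Tm4sf19, another tetraspan gene, -1.27 and -1.15, and Lrrc27, whose locus overlaps Stk32c, -1.14 and -1.47. For Efr3b, which helps place a lipid kinase at the membrane (-1.75 and -1.92), and the filament gene Ina, which overlaps Nt5c2 (-1.57 and -1.40), the stimulated means lay below 6.83, so differences there can be understated.

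Of the 21 same-level genes, 9 still differed by the direct test and 12 did not pass it. The largest difference among them was 1.25-fold. Just inside the limit were Ina (equivalence adjusted p = 0.0313) and Lrrc27 (0.0339), and just outside were Ocstamp, an osteoclast fusion gene (0.0506, difference 0.28), and Aoah, which encodes an enzyme that inactivates LPS (0.102, difference -0.37). Across 16 fits that each left out a mouse or an array, 9 of the 21 stayed in the class every time, among them Aldh1a2, Ifitm3, Ifi27l2a, Jaml, Emp2 and Emp1. The count of higher genes was 6 without mouse 3 and 6 without the LPS array of mouse 3, against 10 with all arrays. Under quantile normalization, cyclic loess and median centring, 14 of the 21 kept the class each time, Emp2 was lost under cyclic loess, and Il1r2 and Ina were lost under all of these scalings. Without the mouse in the model, Aldh1a2, Ifitm1 and Ccr9 left the class. In cells given salt and LPS together, 20 of the 21 had a group mean farther from untreated cells than under both single stimuli. This is a count of means with no test, it was not made for other genes, and some gaps were small. Emp1 averaged 9.62 there against 9.63 under LPS, and Tm4sf19 averaged 9.45 against 9.50 under salt. Aldh1a2 averaged 11.74 there and Ly6i 10.59, while Cd300ld averaged 9.33 and Hpgds 7.51. The exception was Ina at 6.22.

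**Figure D2:**
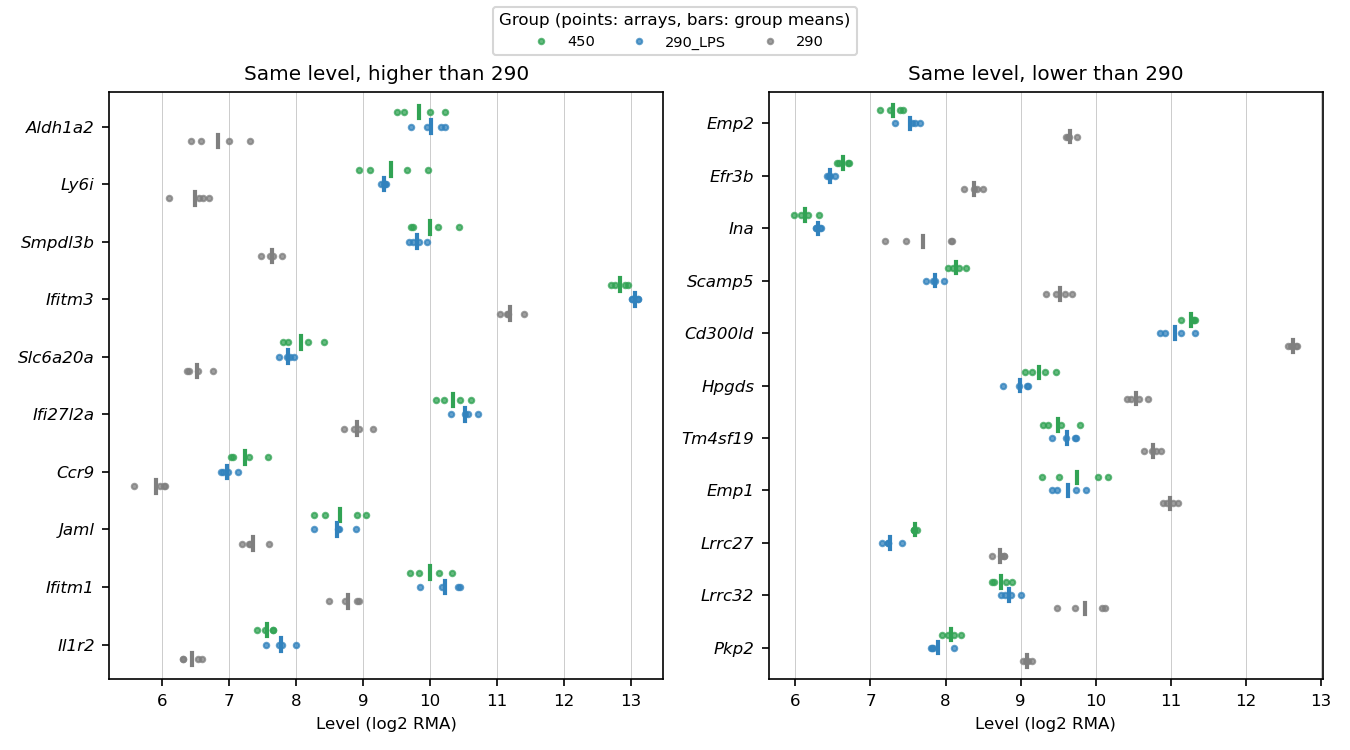
Levels (horizontal axis, log2 RMA) of the 21 same-level genes by array, 10 higher than untreated cells on the left and 11 lower on the right. Points are arrays and bars are group means for 450 (salt alone), 290_LPS (LPS alone) and 290 (untreated). Salt and LPS arrays lie close together and apart from untreated arrays.

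Among the 60 genes that moved in 1 direction to unequal levels, 34 were higher under both and more so under LPS. The 6 with the largest salt change come first. Ccl17, a chemokine that attracts Ccr4-bearing T cells, had 11.88, 12.06, 10.67 and 10.60 under salt, against 12.72, 12.53, 11.96 and 11.94 under LPS and 8.79, 8.48, 7.66 and 7.83 in untreated cells. Salt and LPS arrays overlapped between mice, but in each of the 4 mice the salt array was lower (difference -0.99 ± 0.17, adjusted p = 7.82e-05 in limma). Vcan, the matrix proteoglycan versican, had 10.25, 9.97, 9.62 and 9.46 under salt, against 11.77, 11.69, 11.54 and 11.64 under LPS and 7.00, 7.40, 6.94 and 7.08 in untreated cells. Its 3 groups did not overlap, with salt in the middle (difference -1.84 ± 0.10). Salt changes of 2.25 ± 0.11 for Serpinb2, a plasminogen activator inhibitor gene, 2.12 ± 0.16 for Slfn1, 2.11 ± 0.14 for Saa3, an acute-phase apolipoprotein gene, and 2.07 ± 0.11 for the complement gene Cfb compared with LPS changes of 3.56 ± 0.11, 4.56 ± 0.16, 4.96 ± 0.14 and 4.87 ± 0.11.

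Interferon-stimulated genes formed another block of these 34. Ifit1, whose promoter holds 3 matches of the interferon element core, had 9.47, 9.20, 8.78 and 9.05 under salt, against 13.11, 13.10, 13.12 and 13.13 under LPS and 7.62, 7.75, 7.52 and 7.88 in untreated cells. Every salt array lay above every untreated array and about 4 units below the LPS arrays (difference -3.99 ± 0.10, adjusted p = 1.87e-14 in limma). Its locus overlaps Ifit1bl1, so their transcripts may not be told apart. Rtp4, whose locus overlaps Masp1, had changes of 1.79 ± 0.09 for salt and 3.41 ± 0.09 for LPS. For Usp18, which removes the ubiquitin-like Isg15 and dampens interferon receptor signalling, the changes were 1.48 ± 0.08 and 4.44 ± 0.08, and for Irf7, the regulator of interferon genes, 1.04 ± 0.09 and 4.62 ± 0.09. Mt2, a metal-binding metallothionein gene, had the smaller gap of -0.40 ± 0.08 (changes of 1.27 and 1.67).

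Only 3 genes were higher under both and more so under salt, a count that was 5 under quantile normalization and with array weights. It was also 5 without mouse 3, without the salt array of mouse 4 and without the LPS array of mouse 3. Slc6a12 averaged 11.89 ± 0.128 under salt (SD, n = 4), with 11.73 as its lowest array, against 9.75, 9.67, 9.86 and 9.86 under LPS and 8.46, 8.38, 8.51 and 8.69 in untreated cells. The 3 groups did not overlap, so this carrier was higher under LPS too (1.27 ± 0.07), by less than under salt (3.38 ± 0.07), and the direct difference was 2.11 ± 0.07 (adjusted p = 3.47e-13 in limma). Ifitm6 had changes of 2.67 ± 0.12 under salt and 1.18 ± 0.12 under LPS. Pdcd1lg2, an inhibitory ligand of activated T cells, had 1.57 ± 0.06 and 1.12 ± 0.06, and left the class under cyclic loess and median centring.

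Downwards, 13 genes fell more under LPS and 10 more under salt. Plau, the urokinase-type plasminogen activator gene, had 8.18, 8.25, 8.48 and 8.63 under salt, against 9.23, 9.02, 9.33 and 9.22 under LPS and 11.51, 11.41, 11.11 and 11.20 in untreated cells. All groups were apart, with salt lowest (difference -0.82 ± 0.11, adjusted p = 4.66e-06 in limma). The coagulation initiator gene F3 (changes of -2.52 ± 0.14 under salt and -1.64 ± 0.14 under LPS), the growth factor gene Pdgfb (-2.02 ± 0.07 and -1.64 ± 0.07) and the neutrophil resistin-like gene Retnlg (-4.49 ± 0.22 and -2.06 ± 0.22) went the same way. Egr2, an early growth response transcription factor, fell more under LPS, with -1.13 ± 0.08 under salt and -1.92 ± 0.08 under LPS, as did Gask1b (-1.17 ± 0.11 and -2.68 ± 0.11).

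**Figure D3:**
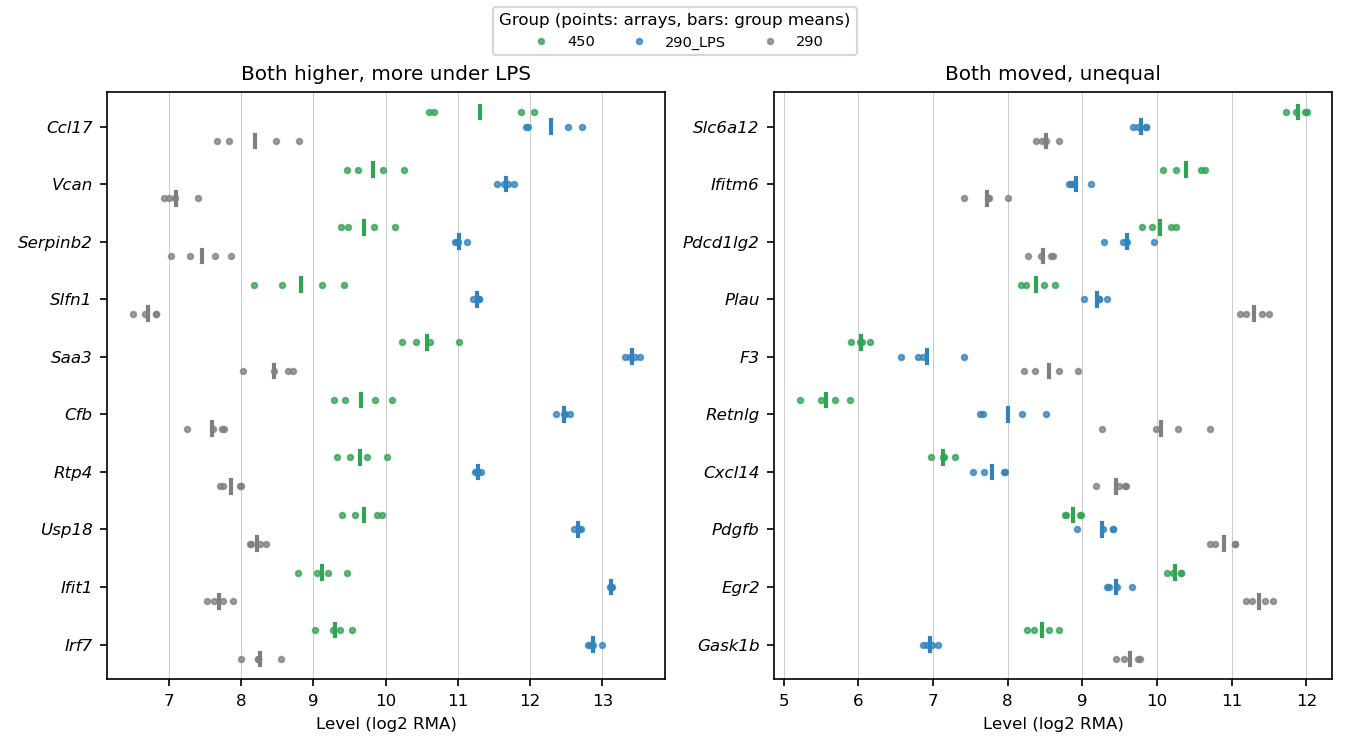
Levels (horizontal axis, log2 RMA) by array of genes that moved in 1 direction under both stimuli to unequal levels. Left, 10 genes higher under both and more under LPS, with salt means between untreated and LPS means. Right, 3 genes higher and 5 genes lower with the larger change under salt, and Egr2 and Gask1b lower with the larger change under LPS.

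The salt-specific class held 18 higher and 19 lower genes, with ion and solute carriers among the higher ones. Fxyd2 had 10.38, 10.27, 10.12 and 10.15 under salt, against 6.95, 6.99, 7.11 and 7.17 under LPS and 6.92, 6.88, 6.82 and 7.07 in untreated cells. LPS and untreated arrays overlapped about 3 units below the salt arrays (change under LPS 0.13 ± 0.07). Slc5a3, the inositol carrier gene, had 9.23, 9.06, 9.60 and 9.42 under salt, against 6.73, 6.86, 6.74 and 6.63 under LPS and 6.89, 6.75, 6.89 and 6.90 in untreated cells (difference 2.59 ± 0.09, adjusted p = 1.57e-12 in limma). Only the salt arrays stood apart, and with both stimuli together the mean was 7.39. The locus of Slc5a3 on chromosome 16 lies within that of Mrps6, a mitochondrial ribosomal protein gene, with 29138 shared bases, and Mrps6 was salt specific too (changes of 1.23 ± 0.05 and 0.04 ± 0.05). Their transcripts may not be told apart. More carriers were in the class, namely Slco4a1 for organic anions (2.28 ± 0.05 under salt), Slc39a4 for zinc (1.53 ± 0.07) and Slc6a9 for glycine (1.22 ± 0.09). The lectin gene Mgl2 had 11.63, 11.77, 10.99 and 11.20 under salt, against 9.45, 9.62, 8.94 and 9.01 under LPS and 9.66, 9.78, 9.16 and 9.18 in untreated cells. Here LPS was slightly lower than untreated in every mouse (-0.19 ± 0.05), which is within the limit of 0.5. The other 11 were Cyp1b1, Mfsd6, Itga1, Adgre4, Ltc4s, Hgfac, Asgr2, Lsr, Apcdd1, Klk1b27 and Ace.

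Of the 19 salt-specific falls the largest was in Ltf, the neutrophil granule protein lactoferrin, with 5.89, 6.26, 6.31 and 6.22 under salt, against 10.71, 11.13, 11.04 and 11.36 under LPS and 10.81, 10.94, 11.21 and 11.45 in untreated cells (difference -4.89 ± 0.10, adjusted p = 5.49e-15 in limma). LPS and untreated arrays overlapped throughout. Ly6g, a neutrophil surface marker gene, averaged 4.87 under salt, 8.20 under LPS and 8.10 in untreated cells. These 2 are neutrophil markers, and the summed list is given below. Outside that list were the enkephalin precursor gene Penk (changes of -1.85 ± 0.08 under salt and 0.26 ± 0.08 under LPS), the platelet chemokine gene Pf4 (-1.51 ± 0.08 and -0.33 ± 0.08), the membrane protein gene Ms4a7 (-1.39 ± 0.07 and 0.22 ± 0.07), the transcription regulator gene Tsc22d1 and the cyclin D1 gene Ccnd1 (-1.30 ± 0.10 and 0.26 ± 0.10). The remaining 12 were Clec12a, Layn, Hivep3, Phlda1, Ppic, Slc2a3, Psat1, Cd177, Dusp4, F2rl2, Nckap1 and Fcnb. Of all 37 salt-specific genes, 31 kept their class without the mouse in the model, and Mgl2, Penk, Pf4, Ccnd1, Adgre4 and Klk1b27 did not.

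The LPS-specific class was the largest, with 444 genes higher and 387 lower, against 525 and 283 under cyclic loess. Cytokine, costimulation and migration genes stood in it. Cd40, the receptor through which T cells license dendritic cells, had 7.66, 7.50, 7.65 and 7.33 under salt, against 12.77, 12.76, 12.70 and 12.85 under LPS and 7.46, 7.45, 7.34 and 7.57 in untreated cells. Salt and untreated arrays overlapped about 5 units below the LPS arrays (difference -5.23 ± 0.07, adjusted p = 9.51e-17 in limma). Il10, an anti-inflammatory cytokine gene, had 4.96, 4.70, 4.58 and 4.87 under salt, against an average of 9.16 ± 0.241 under LPS (SD, n = 4, lowest array 8.93) and 4.74, 4.67, 4.62 and 5.02 in untreated cells, and salt and untreated arrays overlapped at the dim end of the scale (salt change 0.02 ± 0.10). The T cell-attracting chemokine gene Cxcl9 (direct difference -5.62 ± 0.06), the interleukin 1 beta gene Il1b (-4.89 ± 0.17), the lymph node homing receptor gene Ccr7 (-2.46 ± 0.13) and the costimulatory ligand genes Cd80 (-2.31 ± 0.06) and Cd86 (-2.18 ± 0.09) were in the same class. Il6 met the rule as well, although its salt change of 0.33 ± 0.09 was called. Genes of the class that fell under LPS included Lpin1 (-3.17 ± 0.12 from untreated), the vitamin B6 kinase gene Pdxk (-2.70 ± 0.08, with a called salt change of -0.34 ± 0.08) and Vegfa, the endothelial growth factor gene. Vegfa had 9.58, 9.58, 9.76 and 9.84 under salt, against 7.75, 7.84, 7.75 and 7.90 under LPS and 9.85, 9.90, 9.64 and 9.74 in untreated cells (difference 1.88 ± 0.11).

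In the opposite class, 30 genes were higher under salt and lower under LPS. Leaving out a predicted gene, Cd28 stood first in it by the smaller of its 2 changes (1.32 ± 0.11 under salt and -2.30 ± 0.11 under LPS), followed by Eps8 (1.27 ± 0.07 and -1.68 ± 0.07). Hpgd, which inactivates prostaglandins, had 8.89, 8.63, 8.82 and 8.26 under salt, against 5.69, 6.12, 5.91 and 6.01 under LPS and 6.97, 6.78, 7.18 and 7.09 in untreated cells. All 3 groups were apart, and its changes were 1.65 ± 0.13 and -1.07 ± 0.13. The lipid enzyme genes Scd1 (1.80 ± 0.08 and -0.91 ± 0.08) and Naaa, which cleaves fatty acid amides (1.30 ± 0.07 and -0.88 ± 0.07), and the sialic acid-binding receptor gene Siglecf (0.75 ± 0.10 and -1.27 ± 0.10) moved likewise. Siglecf is also an eosinophil marker, and the 2 other tested eosinophil markers, Prg2 and Ccr3, were lower under salt than in untreated cells (-0.70 and -0.66).

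The reverse pattern, lower under salt and higher under LPS, held for 84 genes and included core inflammatory mediators. Tnf had 9.75, 9.49, 9.86 and 9.81 under salt, against 12.72, 12.93, 13.01 and 13.12 under LPS and 10.60, 11.10, 10.23 and 11.04 in untreated cells. Every salt array lay below every untreated array and every LPS array above (changes of -1.01 ± 0.15 and 2.21 ± 0.15, direct difference -3.22 ± 0.15, adjusted p = 1.87e-11 in limma). Ccl2, which attracts monocytes, had 7.42, 7.65, 7.54 and 7.61 under salt, against 11.75, 11.57, 11.48 and 11.64 under LPS and 9.79, 9.33, 8.83 and 9.05 in untreated cells (changes of -1.69 ± 0.12 and 2.36 ± 0.12). Again the untreated arrays were in between. The actin bundler gene Fscn1 of mature dendritic cells (-0.72 ± 0.13 and 3.37 ± 0.13), the scavenger receptor gene Marco (-1.10 ± 0.09 and 2.89 ± 0.09), Apol7c (-1.26 ± 0.14 and 3.45 ± 0.14) and the NF-kB inhibitor gene Tnfaip3 (-0.91 and 1.82) were in the class, as were the chitinase-like gene Chil1 (-2.29 ± 0.12 and 2.16 ± 0.12), the iron-binding lipocalin gene Lcn2 (-4.31 ± 0.15 and 1.30 ± 0.15) and the cathelicidin gene Camp (-2.44 ± 0.09 and 1.42 ± 0.09). The class held 6 of the 18 neutrophil markers tested, Lcn2, Camp, S100a8 and S100a9 among them (S100a8 left it under quantile normalization), and 4 of the 6 mast cell and basophil markers.

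**Figure D4:**
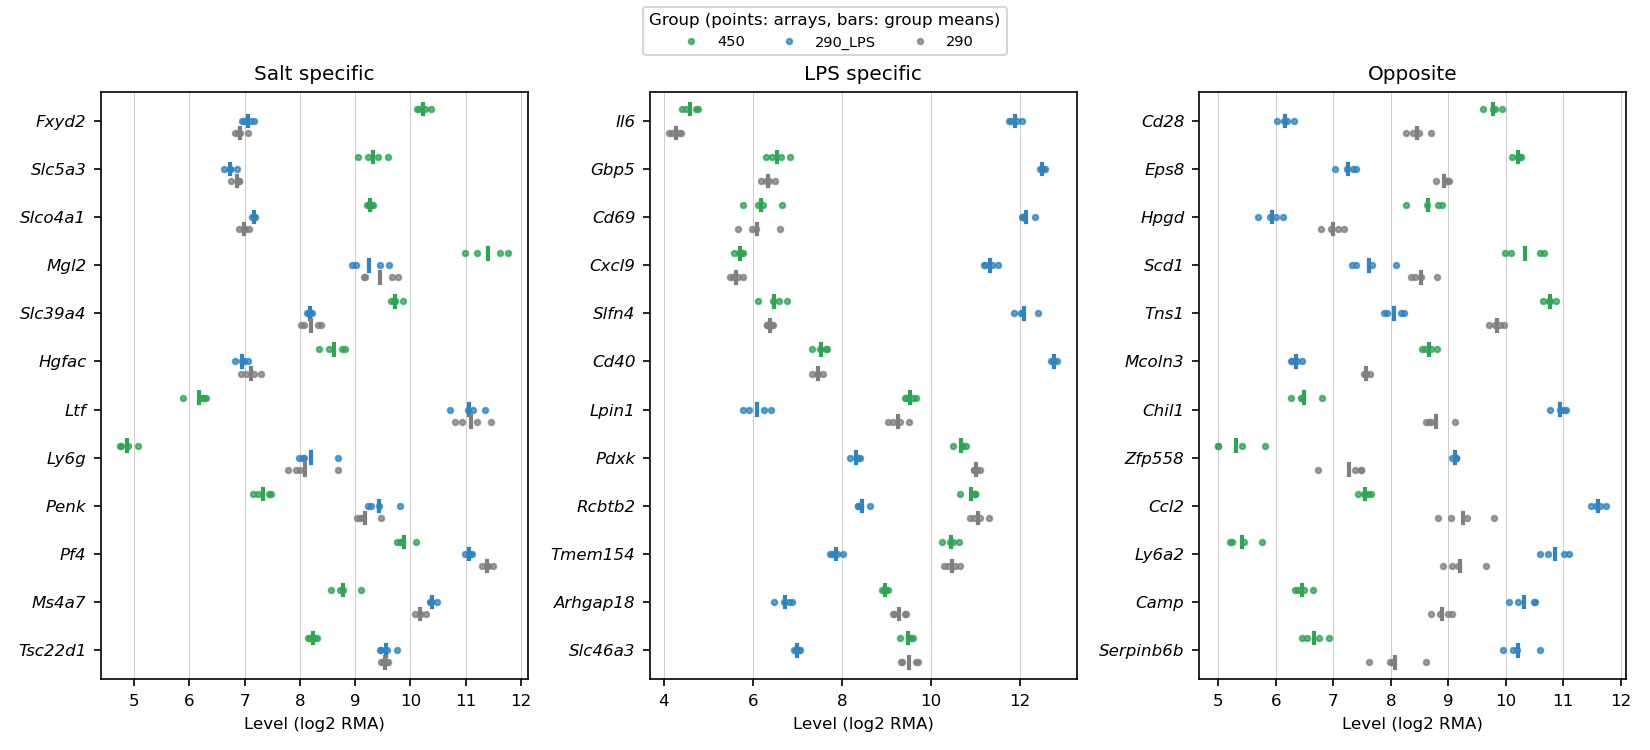
Levels (horizontal axis, log2 RMA) by array of salt-specific genes (left), LPS-specific genes (middle) and genes that moved in opposite directions (right), each panel with 6 genes of either direction chosen by the size of change. Bars are group means. On the left the LPS means lie within 0.5 of the untreated means, in the middle the salt means do, and on the right the untreated means lie between the others.

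Markers of other cell types moved with these classes. Over all genes, 45.8% were higher and 28.3% lower under salt than under LPS. Of 18 neutrophil markers, 1 was higher and 15 lower under salt than under LPS, with a median difference of -2.80 against 0.106 over all genes. Against untreated cells the list had 1 higher and 16 lower under salt (median -2.61) and 9 higher and 2 lower under LPS (median 0.33). The mean level of the list was 6.92 to 7.06 over the salt arrays, 9.56 to 9.94 over the LPS arrays and 9.31 to 9.78 over the untreated arrays. The defining markers Ly6g, Ngp and Ltf were near the dim end of the scale under salt, with means of 4.87, 6.27 and 6.17. Of the 6 mast cell and basophil markers that passed the filter, 0 were higher and 5 lower under salt than under LPS (median -2.49). Their mean level ranged over 6.24 to 6.38 under salt, 8.12 to 8.85 under LPS and 7.30 to 8.01 in untreated cells. The salt means lay below 6.83, so members could pass the filter through brighter arrays of other groups, which favours this direction. The other listed markers, Cma1, Mcpt4, Tpsb2, Fcer1a, Ms4a2 and Il4, were below 6.83 in every array of these groups. Both lists differed in the comparisons behind all the classes above, and their part in these results was not tested. Il6, Cd40, Slc6a12, Fxyd2 and Aldh1a2 are not in these lists, and whether cells of these types express them was not tested. Of the other marker lists, the 13 dendritic cell markers split into 6 higher and 6 lower in the direct comparison (median 0.07, against -0.0787 to -0.0124 under the 3 other scalings), macrophage markers 6 of 12 higher and 5 lower, monocyte markers 3 of 7 higher and 4 lower, and plasmacytoid dendritic cell markers 1 of 7 higher and 4 lower. Few members passed the filter for B cells (1, lower), T and NK cells (2, 1 of them lower), eosinophils (3, with 1 higher and 2 lower) and erythroid and megakaryocyte cells (4, all lower).

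Lists of pathway genes are described by counts and medians. Over all genes, 45.8% were higher and 28.3% lower under salt than under LPS, with a median of 0.106. Against untreated cells, 21.6% were higher and 24.9% lower under salt, and 26.8% and 47.6% under LPS. The counts of each list below stand beside these shares. In the osmoadaptation list, 9 of 14 genes were higher and 2 lower under salt than under LPS, with a median difference of 0.44. The list had 8 higher and 1 lower for salt against untreated cells and 6 higher and 4 lower for LPS. The LPS counts depended on the scaling, with 8 higher and 3 lower under quantile normalization and 9 and 2 under cyclic loess. The taurine carrier gene Slc6a6 of this list was called neither for salt against untreated cells nor in the direct comparison. Its salt change ran from 0.06 to 0.17 over 28 alternatives, 6 of which called it. Beside the carriers named above, the cystine carrier gene Slc7a11 was put in the opposite class (-0.52 ± 0.10 and 1.11 ± 0.10), which it left under quantile normalization and cyclic loess and kept in 10 of the 16 fits that left out a mouse or an array, and the glutamine carrier gene Slc38a1 fell under LPS only (-0.02 ± 0.06 and -1.41 ± 0.06). Nfat5 itself had 8.86, 8.72, 9.07 and 8.62 under salt, against 9.27, 9.33, 9.06 and 9.33 under LPS and 8.80, 8.85, 8.80 and 8.95 in untreated cells. The salt array was lower in 3 of 4 mice (difference -0.43 ± 0.09, adjusted p = 0.000658 in limma), and its salt change of -0.03 ± 0.09 did not pass (adjusted p = 0.806).

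All 37 interferon-stimulated genes were lower under salt than under LPS, with a median difference of -2.27. The list had 34 higher and 0 lower under salt against untreated cells (median 0.64) and 37 higher under LPS (median 3.25). Of them 1 reached the same level (Ifitm3), 8 were higher under both and more under LPS, 6 were LPS specific and 22 reached no class. Cmpk2, a mitochondrial nucleotide kinase gene, is an example of these 22 (0.50 ± 0.09 under salt and 5.54 ± 0.09 under LPS). In the TLR4 list 6 of 15 were higher and 9 lower in the direct comparison, and Tlr4 itself had 10.31, 10.14, 10.30 and 9.98 under salt, against 9.31, 9.12, 9.32 and 9.30 under LPS and 9.88, 9.65, 9.72 and 9.46 in untreated cells. The 3 groups did not overlap, with untreated cells in between (changes of 0.51 ± 0.07 and -0.41 ± 0.07). The coreceptor gene Cd14 was higher under both (0.96 ± 0.06 and 1.36 ± 0.06), as was the adaptor gene Ticam2 (0.59 and 0.36).

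Inflammatory output separated the stimuli. The NF-kB list had 0 of 16 higher and 16 lower under salt than under LPS (median -1.48), and against untreated cells 2 higher and 3 lower under salt and 16 higher under LPS. Cytokine genes had 0 of 18 higher and 18 lower (median -3.11), with 3 higher and 3 lower under salt and 18 higher under LPS against untreated cells. Il23a, Csf2, Csf3 and Ifnb1 of this list were below the filter and not counted. A gene passed the filter with 4 arrays above 6.83 in any groups. Il6 and Il10 were above that level only in arrays with LPS, so the filter favours this direction, which can hold for other lists too. For chemokine genes 1 of 19 was higher and 18 lower (median -2.80), and the 1 was Ccl6, a myeloid chemokine gene singled out after its values were seen (0.69). Costimulation and maturation genes had 1 of 18 higher, Pdcd1lg2, and 16 lower (median -2.28). In MHC class I presentation 2 of 15 were higher and 11 lower (median -1.15), with the regulator gene Nlrc5 at 0.93 ± 0.07 under salt and 3.21 ± 0.07 under LPS against untreated cells. MHC class II went the other way, with 8 of 11 higher and 1 lower. Its median was 0.23 against 0.106 over all genes, and 0.15 against 0.0257 under median centring. Its master regulator gene Ciita had 10.76, 10.66, 10.53 and 10.48 under salt, against 9.60, 9.51, 9.14 and 9.32 under LPS and 9.76, 9.70, 9.96 and 9.67 in untreated cells. The salt arrays were all above the other 8 (direct difference 1.22 ± 0.09, adjusted p = 5.76e-09 in limma).

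Cell cycle genes had 21 of 26 higher and 3 lower (median 0.68), with 9 higher and 2 lower under salt and 3 higher and 20 lower under LPS against untreated cells. The mitotic kinase gene Aurkb was at 0.70 ± 0.07 under salt and -0.58 ± 0.07 under LPS, and Mki67, a marker of dividing cells, at 0.26 and 0.14. For Mki67 neither the LPS change nor the direct difference was called, and 4 of 28 alternatives lost the call for salt. Sterol and fatty acid synthesis had 14 of 23 higher and 3 lower (median 0.44), with Fasn, the fatty acid synthase gene, at 0.67 ± 0.07 and -0.72 ± 0.07. Within the list Dhcr7, the last enzyme of cholesterol synthesis, fell under LPS only (-1.79 ± 0.07), while Idi1, an earlier enzyme of the pathway, was higher under LPS only (2.12 ± 0.11). Ribosome biogenesis and MYC target genes had 18 of 22 higher and 1 lower (median 0.50), although most were below untreated cells under both stimuli, with 1 higher and 18 lower under salt and 0 higher and 21 lower under LPS. Myc itself averaged 8.70 under salt, 7.59 under LPS and 9.53 in untreated cells. Lysosomal genes had 15 of 22 higher and 2 lower (median 0.37).

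The remaining lists were mixed, beside 45.8% higher and 28.3% lower over all genes. Heat shock and ER chaperone genes had 10 of 18 higher and 6 lower, glycolysis and hypoxia genes 7 of 22 higher and 11 lower, and NRF2 and metallothionein genes 5 of 14 higher and 7 lower. Phagocytic and scavenger receptor genes had 10 of 20 higher and 9 lower, and BCL2 family and p53 target genes 7 of 17 higher and 7 lower. MAP kinase phosphatase and AP-1 genes had 4 of 15 higher and 10 lower. For this list the salt change was the more uniform one, with 1 higher and 12 lower against untreated cells, compared with 6 higher and 5 lower under LPS. Alternative activation genes had 6 of 14 higher and 7 lower, and spread over most classes: Aldh1a2 reached the same level, Ccl17 and Vcan were higher under both, Mgl2 was salt specific, Ccl22 LPS specific, and Retnla, a resistin-like gene, was put in the opposite class (1.40 under salt and -0.64 under LPS). Retnla left that class under quantile normalization, under cyclic loess and without the mouse in the model, and kept it in 9 of the 16 fits that left out a mouse or an array. Chil3, a chitinase-like gene, was in the opposite class the other way round. Over the alternatives run its change was -2.31 to -1.90 under salt and 0.72 to 0.98 under LPS. It kept the class under all 3 other scalings and in all 16 of those fits. Egr2 was lower under both.

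**Figure D5:**
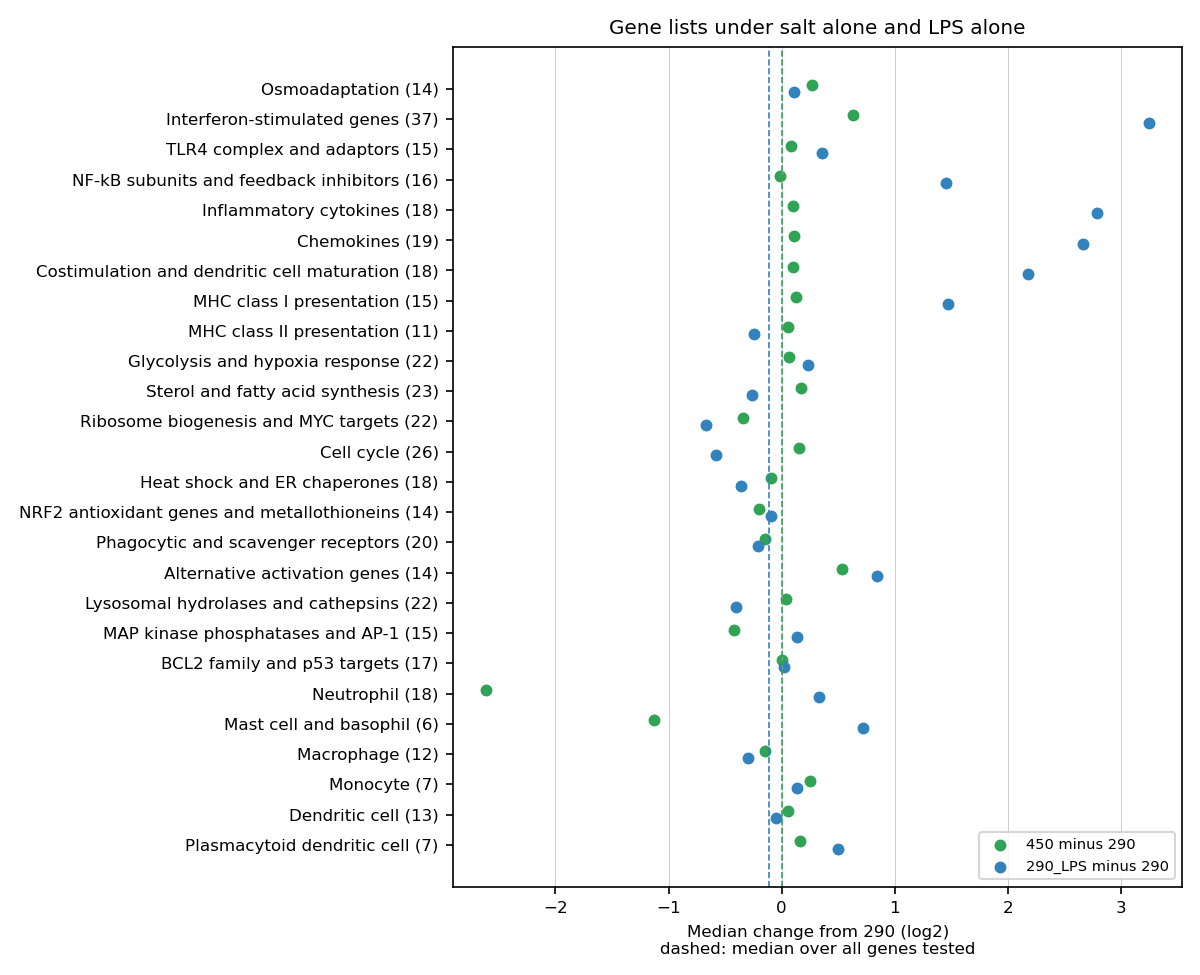
Median change from untreated cells (horizontal axis, log2) of each gene list under salt and under LPS, with the number of tested genes in brackets. Dashed lines are the medians over all 10236 genes. Both medians of a list are measured from the same untreated arrays. The interferon-stimulated list lies right of the dashed line under both stimuli, and the neutrophil list lies far left under salt alone.

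Promoters could be read for 8256 of the tested genes, with 10496 promoters of 300 bases. The interferon element core stood in 7.241% of all of them, the NF-kB consensus in 10.55% and TGGAAA in 16.14%. Counted by gene, 8.733% of the 8256 held the interferon core in at least 1 promoter. Of the 26 interferon-stimulated genes with a promoter, 14 held it (53.85%), as did 8 of 25 genes that were higher under both and more under LPS, 57 of 344 LPS-specific higher genes (16.57%) and 2 of 8 same-level higher genes. The NF-kB consensus was in 12.38% of all genes by the same count and in 47 of 344 LPS-specific higher genes (13.66%). TGGAAA was in 18.74% of all genes, in 3 of 15 salt-specific higher genes and in 9 of 25 genes higher under both and more under LPS. It was also in 4 of 9 same-level lower genes. A match is a description of these letters in this window and not a shown site.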

How the data were processed

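Transcripts were measured on 16 arrays, 4 mice in each of 4 groups. The values deposited by the authors are log2 expression levels made with RMA in the oligo package, per the submitters' processing notes. Tool versions and the build are not stated in the sources used, and the number of arrays limits the precision. Of 22549 probe sets, 20646 carried 1 gene symbol, 551 several and 1352 none in the platform annotation, and 20596 matched RefSeq by gene ID. Of all probe sets, 12097 had at least 4 arrays above 6.83, and the 11083 of them with 1 gene symbol were kept. Each of 10236 genes was represented by its kept probe set with the highest mean (506 had several). Genes with no such probe set were not analysed here.

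A linear model with 4 group means and the mouse as a block was fitted in limma 3.58.1 (R 4.3.3) to all 16 arrays and tested on simulated data. Benjamini-Hochberg adjustment ran over all genes. Equivalence was tested with 2 one-sided tests against 0.5, adjusted in the same way. The labels tie each replicate number to 1 mouse. Deviations from group means correlated with a median of 0.175 (range -0.146 to 0.433) over 12 same-mouse pairs, 0.0659 (-0.0971 to 0.269, 2 of 4 over 0.1) over the 4 pairs of salt with LPS, and -0.0368 over 36 pairs of different mice.

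Genes were named by a rule: the 10 highest and 10 lowest direct differences with 1 sign in all 4 mice, up to 8 genes per class and direction with the largest change, up to 4 per list with the smallest adjusted p, and fixed genes of both pathways, leaving out predicted genes. Other genes of the same-level and salt-specific classes were named to account for their members. Listed genes below the filter were named only as such. The few others (Itgax, Cd74, S100a8, Mki67, Mt2, Ocstamp, Aoah, Ticam2, Retnla and Ccl6) were chosen after their values were seen. The comparison, classes, 20 pathway lists and 10 marker lists were chosen with earlier results of these data known. Alternatives covered the block, filter, probe set choice, scaling, variance model, arrays used and thresholds.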

Additional observations from a re-analysis of the deposited data

Results flagged for a closer look

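Over 97 genes named above, 291 groups of 4 arrays were screened for an array far from the rest of its group (Dixon's test). It marked 10, while chance marks about 1 in 20 groups. In salt cultures, Cd300ld was 11.14 in mouse 1 (11.29 to 11.32 in the others), Ccnd1 was 7.69 in mouse 4 (7.15 to 7.22) and Lcn2 was 7.34 in mouse 4 (8.09 to 8.22). In LPS cultures, Cd69 was 12.33 in mouse 1 (12.05 to 12.07), Il1b was 13.26 in mouse 1 (13.31 to 13.32) and Tlr4 was 9.12 in mouse 2 (9.30 to 9.32). Pkp2 was 8.12 there in mouse 3 (7.81 to 7.83) and Ly6g was 8.68 in mouse 4 (7.99 to 8.07). In untreated cultures, Eps8 was 8.78 in mouse 2 (8.97 to 9.01) and Slc5a3 was 6.75 in mouse 2 (at least 6.89).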

How the results depend on the processing

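Leaving out a mouse or an array gave 4370 to 4684 higher and 2727 to 2887 lower genes for salt minus LPS. Salt against untreated gave 1558 to 2306 and 1842 to 2560, and LPS against untreated gave 2548 to 2784 and 4627 to 4908. Same-level genes numbered 6 to 12 higher and 8 to 13 lower, salt-specific 13 to 20 and 14 to 19, LPS-specific 395 to 454 and 353 to 407, and opposite 27 to 35 (higher under salt) and 75 to 96. Unequal genes numbered 29 to 38 and 3 to 5 (higher, more under LPS and more under salt) and 11 to 16 and 7 to 10 (lower). Without the replicate block that pairs cultures by mouse, the direct comparison gave 4605 higher and 2849 lower, salt 2104 and 2426, LPS 2702 and 4819, same level 7 and 11, salt specific 15 and 16, and LPS specific 434 and 383. Median centring gave 1416 higher for salt. Genes higher under both and more under salt numbered 5 under quantile normalization and 5 with array weights. An equivalence limit of 0.3 gave 1 and 0 same-level, 5 and 6 salt-specific and 186 and 182 LPS-specific genes. A smallest change of 0.5 gave 50 and 110 same-level, 68 and 96 salt-specific and 1000 and 1662 LPS-specific genes, 63 opposite and higher under salt, 117 and 6 higher under both, and 69 and 21 lower under both. A threshold of 0.01 gave 5 and 7 same-level genes. These limits change by construction which genes qualify, and for the scalings the cause was not tested. Of 654 gene and comparison pairs, 571 kept their side of the threshold under all alternatives run and 1 reversed: the LPS change of Ctsk, which was 0.0045 under quantile normalization and 0.038 under cyclic loess. Dim signals limit the differences of genes with a group mean below 6.83.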
